A study of Mus musculus with 18 samples.

Results

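The genes examined were 8 inflammatory cytokine genes, Il1a, Il1b, Il1rn, Il6, Il10, Il12b, Il18 and Tnf, out of 22367 protein-coding genes of mouse. They were taken by name, and no measured value enters the rule, though earlier results of these data were known when they were chosen. The locus of each gene was its span in the GENCODE vM1 annotation of mm9 with 20 kb on either side, which gave loci of 42.6 kb (Tnf) to 54.6 kb (Il1rn). The libraries were ChIP-seq libraries of C10 cells, a single pre-B cell line derived from HAFTL cells that carries C/EBPα fused to the estrogen receptor and tagged with GFP. Once 17 beta-estradiol (β-Est) is added, more of the fusion protein enters the nucleus, and the cells take on a macrophage character (induced macrophages, iMΦ). Cells after 0 hours post-induction (hpi) had received β-Est, IL-3 and CSF-1, and the labels give ethanol, the solvent, for the control cells; the fusion protein was present at all time points. Of the 18 libraries 8 are of C/EBPα, taken at 0 hpi, after 10, 30 and 60 min and at 3, 12, 24 and 48 hpi. C/EBPβ has 5, as has PU.1, taken at the same hours without the early minutes. Each factor and time point had 1 library, so that no value has a replicate check and no test between time points was possible. The labels do not say whether the antibody to C/EBPα separates the fusion protein from the cell's own C/EBPα.

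C/EBPα and C/EBPβ are basic leucine zipper proteins that bind the same DNA element and act in myeloid cells, and PU.1 is an ETS factor that B cells hold at a low level and macrophages at a high one. IL-1α, IL-1β, IL-18, TNF and IL-6 are the cytokines by which macrophages start inflammation, Il12b encodes the p40 subunit shared by IL-12 and IL-23, and Il1rn (the IL-1 receptor antagonist) and Il10 encode proteins that restrain it. In macrophages many of these genes are kept ready by lineage factors and switched on by signals such as lipopolysaccharide through NF-κB and AP-1. No expression data or inflammatory stimulus are part of these libraries, so the values concern binding alone, and the cell type could not be checked by marker genes.

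After removal of repeated positions, C/EBPα libraries held from 5970869 to 24917810 reads, C/EBPβ libraries from 2903580 to 5844202, and PU.1 libraries from 6575348 to 11349746. Those of C/EBPα at 10, 30 and 60 min had reads of 50 bases from another sequencer, and the remaining ones of this factor reads of 36 bases, so sequencer and time cannot be told apart at these time points. There was no input or control library. A value below is the number of reads within 200 bp of the centre of a site, each read moved 75 bp inward from its 5′ end, per 10000000 reads. The intervals are exact Poisson 95% intervals, which cover counting error only. In the 8 loci, more than 1000 bp from any site, a window of the same size held 1.62 (PU.1 at 0 and 3 hpi) to 2.61 (C/EBPβ at 24 hpi) reads per 10000000, which is the background of each value. One read was worth 0.401 (C/EBPα at 10 min) to 3.44 (C/EBPβ at 12 hpi) in this unit. A site was called higher or lower when 2 libraries differed at least 2-fold and their intervals did not overlap, which is a description of these libraries and not a test.

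The 8 loci held 90 of the 125669 sites called in the genome for any factor, with a median of 10 sites per locus beside a median of 5 over all protein-coding loci, whose median length was 55.4 kb. Sites are named by their distance from the gene start along transcription. Of the 90 sites 67 were called for PU.1, beside 73.5% of all sites of the genome, 43 for C/EBPα, beside 38.0%, and 32 for C/EBPβ, beside 14.4%. All 3 factors were called at 15 sites, beside 5.69% of all sites. PU.1 alone accounted for 41, beside 58.9%, C/EBPα alone for 8, beside 18.7%, and C/EBPβ alone for 4, beside 2.15%. In annotation 67 were intergenic, 18 lay in introns, 3 in coding exons and 2 in untranslated regions, and 8 lay within 1000 bp of a start site of the cytokine gene. At 29 sites, most of them in the gene-dense Tnf locus, the nearest start site belonged to another gene. The windows of 23 sites overlapped that of another site, so their values share reads.

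**Figure D1:**
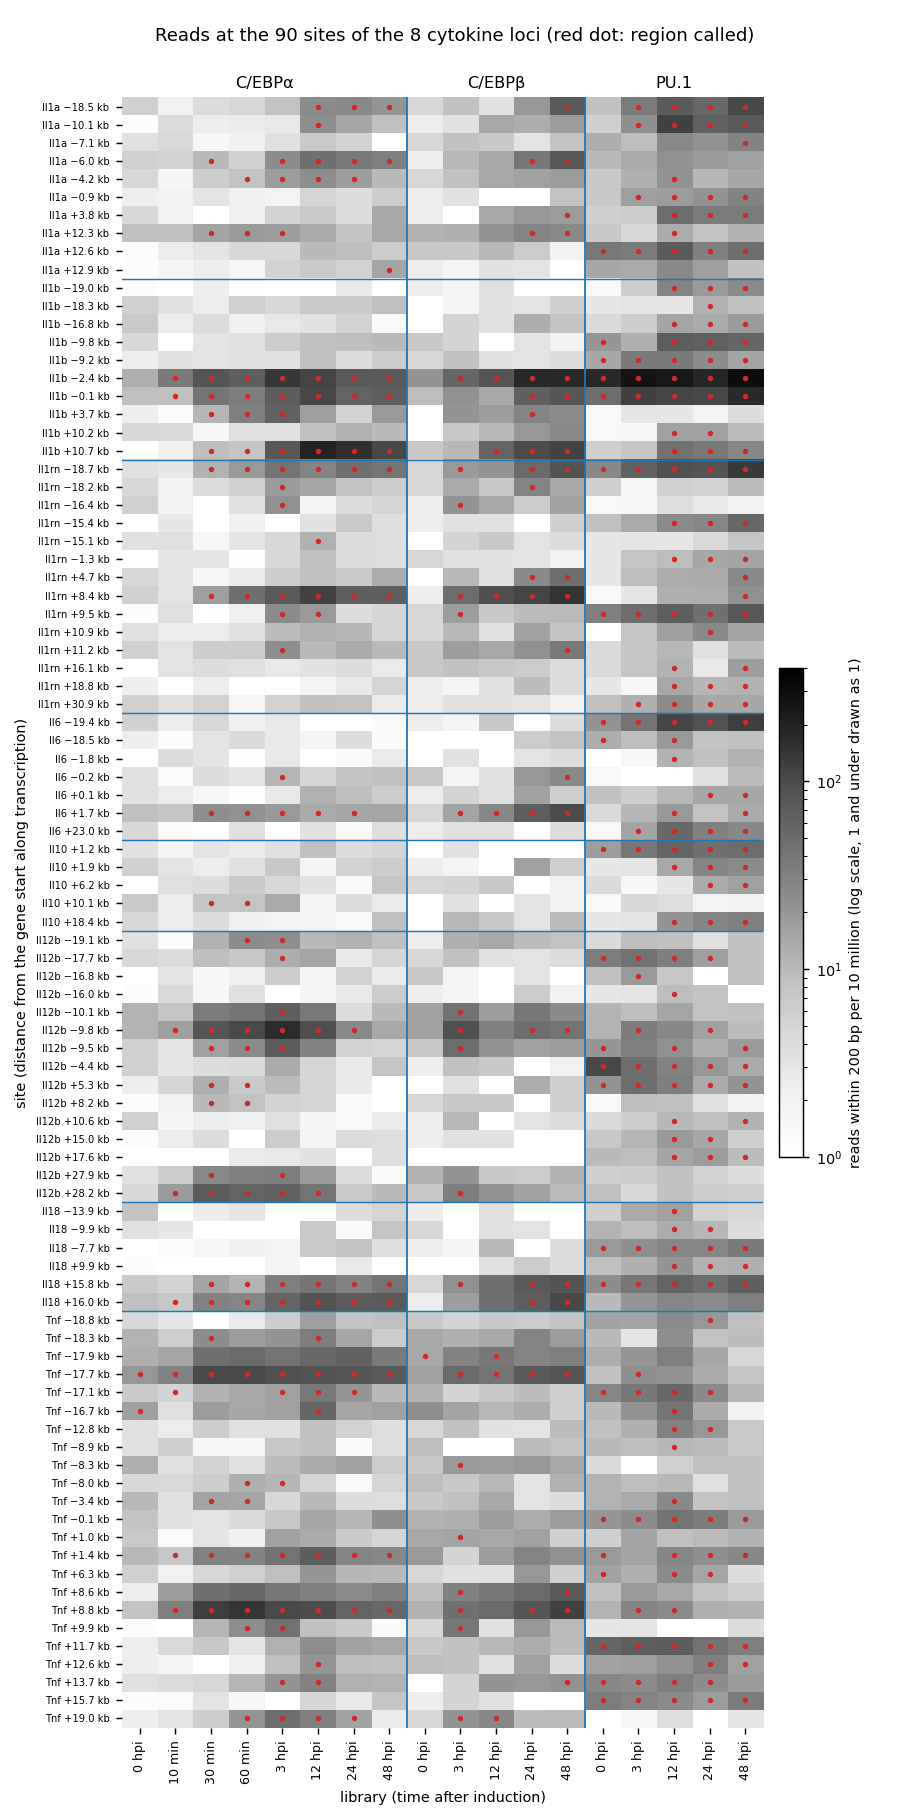
Reads within 200 bp of the centre of each of the 90 sites (rows, grouped by gene and ordered by distance from the gene start) in the 18 libraries (columns, 1 library each), per 10000000 reads on a log scale; a red dot marks a called region. The loci differ in when C/EBPα was called: at Il1a, Il1b, Il1rn, Il18 and Tnf dots run to 48 hpi, at Il6 and Il12b they stop at 24 hpi, and at Il10 at 60 min.

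C/EBPα was called in few of the loci at 0 hpi, in most of them later and in fewer again at 48 hpi, and the time of the maximum depended on the calling setting. At 0 hpi 1 of the 8 loci (Tnf) had a called C/EBPα site, beside 10.9% of all protein-coding loci, and at 10 min 4 had one (Il1b, Il12b, Il18 and Tnf), beside 30.2%. At 30 and at 60 min all 8 loci had one, beside 38.9% and 50.8%. The number was 7 at 3, 12 and 24 hpi, where Il10 had none, beside 47.3%, 42.5% and 33.8%. With windows of 200 bp in every library Il10 was called at 60 min and 3 hpi and not at 30 min, so the times of its calls depend on the rule. Those windows also gave a call at Il1b at 0 hpi and at Il1a at 10 min. At 48 hpi the number of loci was 5, namely Il1a, Il1b, Il1rn, Il18 and Tnf, beside 30.8%, and Il6, Il10 and Il12b had none. The end of calls is not in each case a fall in reads: at the +1.7 kb site of Il6 C/EBPα measured 13.4 and 14.5 at 12 and 24 hpi, both called, and 15.1 at 48 hpi, not called. With all C/EBPα libraries thinned to the smallest, the numbers from 0 to 48 hpi were 0, 2, 5, 5, 7, 7, 6 and 5 loci. The loci at 48 hpi were the same 5. Each thinned library kept its own tag threshold, 12, 10 and 11 reads at 10, 30 and 60 min beside 7 at 12 hpi. The early fall thus mixes depth with a stricter rule, and the maximum at equal depth was not determined. With windows of 200 bp, whose threshold follows depth, the numbers were 2, 5, 7, 8, 8, 6, 7 and 5. Shares over all protein-coding loci were computed for neither setting. Over all time points together the 8 loci were called for C/EBPα and for PU.1, beside 65.3% and 81.0% of protein-coding loci, and 7 of them for C/EBPβ, beside 42.7%.

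By site, C/EBPα was called at 2 sites of the loci at 0 hpi, 9 at 10 min, 23 at 30 min, 25 at 60 min, 32 at 3 hpi, 25 at 12 hpi, 17 at 24 hpi and 13 at 48 hpi. Over all C/EBPα sites of the genome the shares called at these times were 4.82%, 22.9%, 40.0%, 61.2%, 50.9%, 29.4%, 21.9% and 18.4%. In thinned libraries, with tag thresholds unchanged, the sites numbered 0, 3, 10, 13, 24, 25, 13 and 12, with the maximum at 12 in place of 3 hpi. A tag threshold 1.5 times higher left 0, 5 and 13 at 0 hpi, 10 and 30 min. With windows of 200 bp the sites numbered 3, 9, 19, 23, 29, 22, 17 and 14, with the maximum at 3 hpi. Only the Tnf site at −17.7 kb was called at all 8 time points, and 10 sites were called at 1 time point. The shares of all C/EBPα sites called that often were not computed, so these 2 counts have no background. The library of 10 min was the largest of all, and at Il1b −0.1 kb, Il18 +16.0 kb and Tnf +1.4 kb it gave a call although the value (8.83, 7.22 and 7.22) was below that of 0 hpi, where no region was called. Of the 43 sites ever called, 24 were higher at 3 than at 0 hpi, beside 32.3% of the 47796 C/EBPα sites of the genome, and none was lower, beside 0.0439%. From 3 to 48 hpi 11 of the 43 were lower, beside 22.4% genome-wide, and none was higher, beside 2.3%. At 48 hpi 12 of 43 were higher than at 0 hpi, beside 10.6%, none was lower, beside 0.423%, and 31 were neither. The 12 were 4 sites of Il1b and 2 each of Il1a, Il1rn, Il18 and Tnf. The 11 sites lower at 48 than at 3 hpi were 6 of the Il12b locus, 2 each of Il1rn and Tnf, and 1 of Il1b. In the Il12b locus the sites at −10.1 and −9.5 kb share reads with that at −9.8 kb. The sites at +27.9 and +28.2 kb share reads as well, so the 6 are not separate peaks. The median over the 43 sites went from 5.64 reads per 10000000 at 0 hpi to 10.1 at 48 hpi, and over all C/EBPα sites from 4.51 to 6.28.

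The letters of 4 binding elements were searched within 75 bp of each centre on both strands, TTGCNNAA for C/EBP, AGGAAGT for PU.1, TGANTCA for AP-1, and the NF-κB consensus. In the sequences printed below a match is in capitals. Sequences are the plus strand of mm9 (NCBIM37) around the centre of the site, trimmed where an untranslated region begins, and are shown for the strongest C/EBPα site of each locus and for the other sites called for C/EBPα at 5 or more time points. The C/EBP string was present at 9 of the 43 C/EBPα sites of the loci (20.9%), beside 26.5% of all C/EBPα sites and 7.07% of all windows of 151 bp in the genome. The PU.1 string was present at 18 of 67 PU.1 sites (26.9%), beside 37.9% of all PU.1 sites and 3.6% of all windows. AP-1 was present at 4 of 43 C/EBPα sites, beside 6.78%, and 8 of 67 PU.1 sites, beside 7.87%. NF-κB was present at 2 of 43 C/EBPα sites, beside 1.86%, and 4 of 67 PU.1 sites, beside 1.88%. Most bound sites of the loci thus held none of the exact strings within this window, and a match is a description of the letters and no evidence of which protein bound.

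Il1b, which encodes IL-1β, had 3 sites with C/EBPα at 48 hpi, of which 2 were called for PU.1 at 0 hpi and the third was not. The gene lies on the minus strand at chr2:129190306-129196875. The 3 sites lie 2.4 kb upstream of the gene start, at the promoter (0.1 kb upstream, 72 bp from the start), and 10.7 kb downstream of the start, beyond the 3′ end of the gene.
Il1b −2.4 kb, chr2:129199172-129199322: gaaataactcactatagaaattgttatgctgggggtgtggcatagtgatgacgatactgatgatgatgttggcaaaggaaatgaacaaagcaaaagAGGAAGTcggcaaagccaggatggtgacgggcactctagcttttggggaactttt
Il1b −0.1 kb, chr2:129196876-129197022: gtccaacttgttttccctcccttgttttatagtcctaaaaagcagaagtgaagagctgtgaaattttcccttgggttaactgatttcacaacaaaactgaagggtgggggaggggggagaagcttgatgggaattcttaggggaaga
Il1b +10.7 kb, chr2:129186063-129186213: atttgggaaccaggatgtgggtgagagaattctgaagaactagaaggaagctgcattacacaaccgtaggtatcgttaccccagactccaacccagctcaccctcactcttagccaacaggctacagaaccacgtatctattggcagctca
The −2.4 kb site holds 1 PU.1 string, and the other 2 sites hold none of the strings.

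At the −2.4 kb site of Il1b PU.1 measured 177 at 0 hpi, 260.1 at 3 hpi, 245 at 12 hpi, 183 at 24 hpi and 316 at 48 hpi. These were the highest PU.1 values at any of the 90 sites, and the site was called in all 5 libraries. C/EBPα there measured 12.4 at 0 hpi, 36.1 at 10 min, 83.05 at 30 min, 66.02 at 60 min, 138 at 3 hpi, 110.5 at 12 hpi, 71.2 at 24 hpi and 72.9 at 48 hpi, and was called from 10 min on. Its increase from 0 to 48 hpi was 5.88-fold (95% counting interval 3.05 to 12.4). C/EBPβ measured 21.01 at 0 hpi, 54.8 at 3 hpi, 82.7 at 12 hpi, 173 at 24 hpi and 175 at 48 hpi and increased 8.35-fold (95% counting interval 4.20 to 18.9). The ratio of 48 over 0 hpi for PU.1 was 1.78-fold (95% counting interval 1.45 to 2.21), which is under the 2-fold limit.

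The Il1b promoter site was bound by the same factors. PU.1 measured 48.2 at 0 hpi, 117 at 3 hpi, 110.1 at 12 hpi, 107 at 24 hpi and 175 at 48 hpi, an increase of 3.63-fold (95% counting interval 2.50 to 5.40), and was called in all 5 libraries. C/EBPα measured 9.02 at 0 hpi, 8.83 at 10 min, 39.99 at 30 min, 33.8 at 60 min, 68.3 at 3 hpi, 107 at 12 hpi, 59.3 at 24 hpi and 66.6 at 48 hpi, called from 10 min on, and was higher at 48 than at 0 hpi by 7.38-fold (95% counting interval 3.49 to 17.98). C/EBPβ was called at 24 and 48 hpi only, with 9.34 at 0 hpi and 80.8 (interval 57.97 to 109.6) at 48 hpi.

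The site 10.7 kb downstream of the Il1b start was not called for any factor at 0 hpi. C/EBPα measured 0 at 0 hpi, 2.01 at 10 min, 9.23 at 30 min, 7.68 at 60 min, 76.4 at 3 hpi, 193 at 12 hpi, 156 at 24 hpi and 106 at 48 hpi. With no read at 0 hpi, the value at 48 hpi was 31.2-fold that of the 3 reads set as the floor for a count of 0. That ratio leaves out the counting error at 48 hpi (interval 84.2 to 131), and the exact interval of the count of 0 reaches 4.16. The ratio is therefore not a lower limit. The highest value came at 12 hpi (interval 159 to 231), which overlapped with that of 24 hpi (129 to 186). PU.1 was called from 12 hpi, with 5.67 at 0 hpi, 7.60 at 3 hpi, 43.9 at 12 hpi, 37.01 at 24 hpi and 27.7 at 48 hpi. C/EBPβ was likewise called from 12 hpi, with 7.004 at 0 hpi, 10.3 at 3 hpi, 58.5 at 12 hpi, 99.2 at 24 hpi and 114 at 48 hpi. All 3 factors were higher at 48 than at 0 hpi here.

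One more C/EBPα site of Il1b, 3.7 kb into the gene and 128 bp before a second annotated start site in an intron, holds a C/EBP string and was called early. It measured 2.25 at 0 hpi, 1.20 at 10 min, 10.8 at 30 min, 31.2 at 60 min, 62.9 at 3 hpi, 16.8 at 12 hpi, 5.27 at 24 hpi and 18.9 at 48 hpi, was called from 30 min to 3 hpi, and was lower at 48 than at 3 hpi by 3.34-fold (95% counting interval 1.89 to 6.28), though still higher than the 2 reads of 0 hpi. PU.1 was never called there. Of the 9 PU.1 sites of the locus, 4 were called at 0 hpi, those at −9.8, −9.2, −2.4 and −0.1 kb. At −19.0 kb PU.1 went from 1.42 at 0 hpi to 24.8 at 48 hpi, and at −9.8 kb, where the sequence holds a PU.1 and an NF-κB string, from 19.9 to 56.4; both sites were higher.

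**Figure D2:**
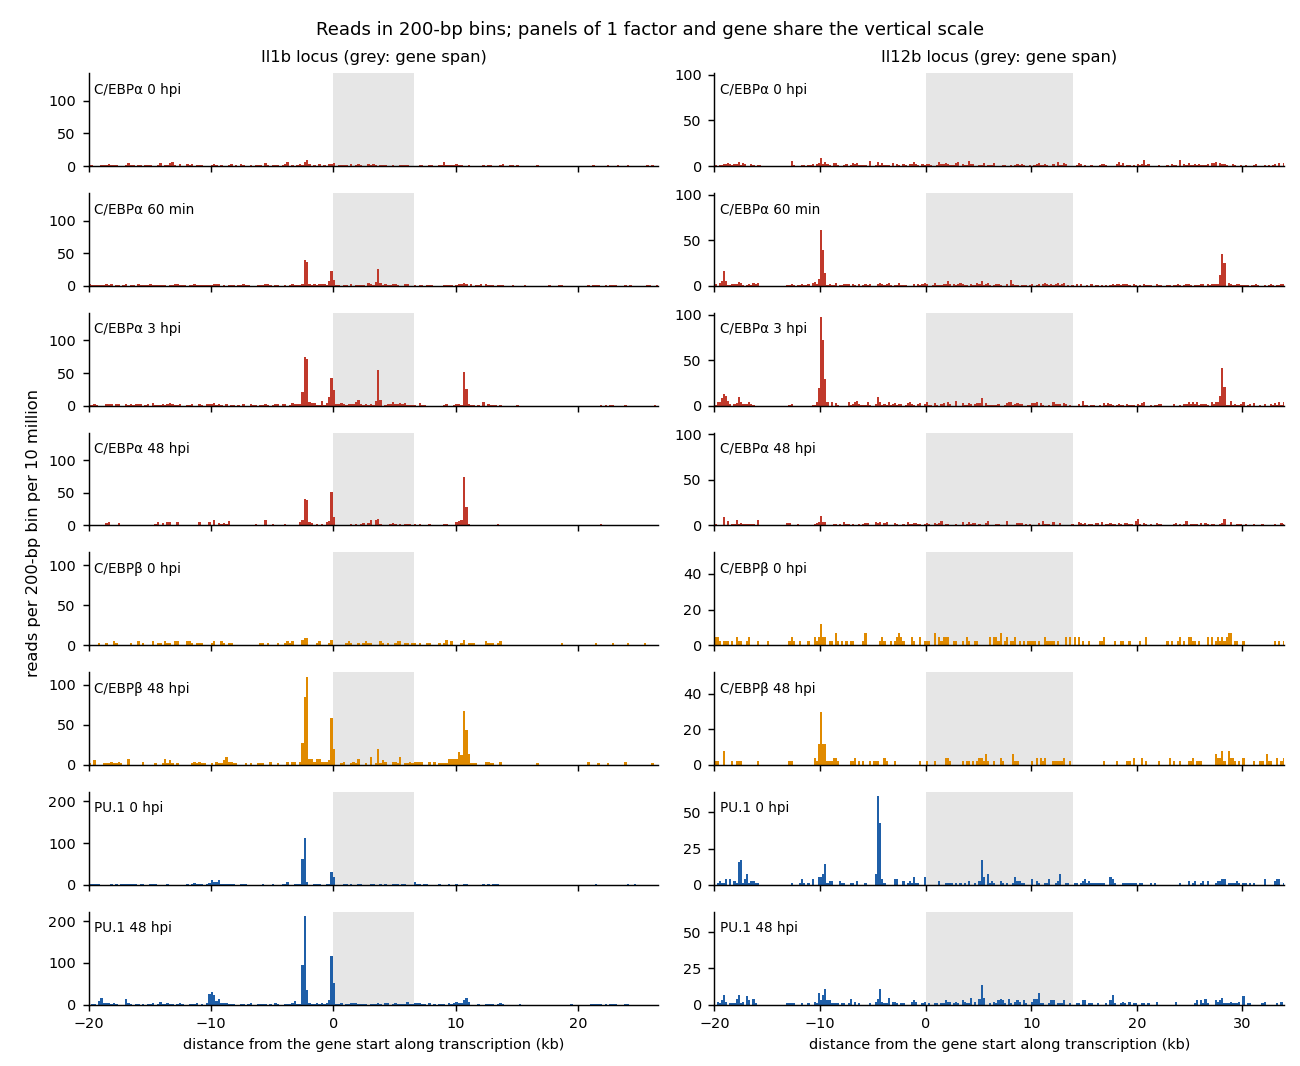
Reads per 10000000 in bins of 200 bp over the Il1b locus (left) and the Il12b locus (right) for 8 of the 18 libraries, plotted by distance from the gene start along transcription in kb; grey marks the gene, and panels of 1 factor and gene share their vertical scale. At Il1b the C/EBPα peaks at −2.4, −0.1 and +10.7 kb were present at 48 hpi, and at Il12b the C/EBPα peaks at −9.8 and +28.2 kb of 60 min and 3 hpi were no longer called at 48 hpi.

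Il1rn, which encodes the secreted antagonist of the IL-1 receptor, gained C/EBPα at an internal promoter. The leading site, 8.4 kb from the gene start, lies in an intron 42 bp before a second annotated start of Il1rn, and holds none of the strings. The gene lies on the plus strand at chr2:24192373-24207014.
Il1rn +8.4 kb, chr2:24200691-24200807: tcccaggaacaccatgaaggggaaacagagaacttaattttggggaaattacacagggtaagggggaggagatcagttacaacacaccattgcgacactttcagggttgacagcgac
Il1rn −18.7 kb, chr2:24173571-24173721: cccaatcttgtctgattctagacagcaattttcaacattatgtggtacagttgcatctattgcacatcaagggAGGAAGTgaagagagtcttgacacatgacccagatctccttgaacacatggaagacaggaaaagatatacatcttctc
C/EBPα measured 5.64 at 0 hpi, 3.21 at 10 min, 16.9 at 30 min, 46.1 at 60 min, 75.5 at 3 hpi, 116 at 12 hpi, 64.6 at 24 hpi and 66.6 at 48 hpi at the internal promoter. It was called from 30 min on, and was 11.8-fold (95% counting interval 4.76 to 37.9) higher at 48 than at 0 hpi. C/EBPβ went from 1 read at 0 hpi, a value of 2.33, to 148 at 48 hpi (interval 116 to 185) and was called from 3 hpi. PU.1 measured 1.42 at 0 hpi, 3.04 at 3 hpi, 12.1 at 12 hpi, 12.3 at 24 hpi and 21.98 at 48 hpi, and was called at 48 hpi only.

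The second durable site of Il1rn, 18.7 kb upstream, was called for PU.1 at 0 hpi and holds a PU.1 string. PU.1 measured 26.9 at 0 hpi, 60.8 at 3 hpi, 89.6 at 12 hpi, 84.6 at 24 hpi and 131 at 48 hpi, an increase of 4.86-fold (95% counting interval 2.995 to 8.32). C/EBPα measured 3.38 at 0 hpi, 2.81 at 10 min, 11.5 at 30 min, 18.9 at 60 min, 40.4 at 3 hpi, 28.5 at 12 hpi, 44.8 at 24 hpi and 40.2 at 48 hpi and was called from 30 min on. C/EBPβ ended at 86.7 from 4.67 at 0 hpi. The sites at −16.4 and +9.5 kb had C/EBPα at 3 hpi (22.5 and 25.2) and were lower at 48 hpi, where both measured 5.03. At +9.5 kb PU.1 was called in all 5 libraries, with 31.2 at 0 hpi and 77.4 at 48 hpi.

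Il1a, which encodes IL-1α and lies on the minus strand at chr2:129125346-129135708, had C/EBPα values below those of Il1b, with a highest value of 45.2.
Il1a −6.0 kb, chr2:129141645-129141795: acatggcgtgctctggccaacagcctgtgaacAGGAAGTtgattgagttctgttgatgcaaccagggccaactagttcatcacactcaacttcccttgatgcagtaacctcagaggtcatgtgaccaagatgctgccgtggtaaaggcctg
The sequence of the leading site, 6.0 kb upstream, holds a PU.1 string, and PU.1 was called there in no library. PU.1 measured 9.93 at 0 hpi, 13.7 at 3 hpi, 22.4 at 12 hpi, 18.5 at 24 hpi and 16.2 at 48 hpi. These values lie above the background of the loci, so the missing call does not mean that PU.1 reads were absent. C/EBPα measured 5.64 at 0 hpi, 5.22 at 10 min, 9.997 at 30 min, 5.63 at 60 min, 24.3 at 3 hpi, 45.2 at 12 hpi, 36.9 at 24 hpi and 32.7 at 48 hpi. It was called at 30 min and from 3 hpi on, and was 5.80-fold (95% counting interval 2.19 to 19.3) higher at 48 than at 0 hpi. C/EBPβ went from 2.33 to 78.8, called at 24 and 48 hpi.

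PU.1 had the highest values upstream of Il1a. At −18.5 kb it measured 8.51 at 0 hpi, 34.98 at 3 hpi, 71.9 at 12 hpi, 54.6 at 24 hpi and 103 at 48 hpi, an increase of 12.1-fold (95% counting interval 5.39 to 33.8), and at −10.1 kb it measured 5.67 at 0 hpi, 22.8 at 3 hpi, 117 at 12 hpi, 61.7 at 24 hpi and 74.5 at 48 hpi. At both sites PU.1 was called from 3 hpi on, and C/EBPα was first called at 12 hpi, with 25.1 at −18.5 kb and 23.4 at −10.1 kb. PU.1 at the site 0.9 kb before the gene start went from 7.09 to 29.6, and at +3.8 kb in an intron from 5.67 to 35.4. All 4 sites were higher at 48 than at 0 hpi. The only PU.1 site of the locus called at 0 hpi was that at +12.6 kb, 119 bp before the start of Ckap2l.

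Il18, which encodes a cytokine of the IL-1 family and lies on the plus strand at chr9:50383378-50389942, had its C/EBPα sites beyond the 3′ end, at +15.8 and +16.0 kb, where the nearest start site is that of Sdhd. The windows of these 2 sites overlap and share reads.
Il18 +15.8 kb, chr9:50399127-50399277: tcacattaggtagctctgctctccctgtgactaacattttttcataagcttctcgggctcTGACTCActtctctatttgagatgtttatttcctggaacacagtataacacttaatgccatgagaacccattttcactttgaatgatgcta
Il18 +16.0 kb, chr9:50399337-50399487: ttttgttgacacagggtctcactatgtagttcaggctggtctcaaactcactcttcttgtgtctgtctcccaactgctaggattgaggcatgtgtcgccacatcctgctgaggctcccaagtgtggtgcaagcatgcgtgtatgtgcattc
C/EBPα at +16.0 kb measured 9.02 at 0 hpi, 7.22 at 10 min, 29.99 at 30 min, 28.1 at 60 min, 56.6 at 3 hpi, 85.4 at 12 hpi, 69.9 at 24 hpi and 71.6 at 48 hpi, called from 10 min on. The increase from 0 to 48 hpi was 7.94-fold (95% counting interval 3.77 to 19.3). C/EBPβ there went from 2.33 to 104. PU.1 was called at +15.8 kb in all 5 libraries, with 24.1 at 0 hpi, 38.02 at 3 hpi, 59.7 at 12 hpi, 46.7 at 24 hpi and 64.02 at 48 hpi. The +15.8 kb site holds an AP-1 string, and the +16.0 kb site none of the strings. No C/EBPα or C/EBPβ site was called at the Il18 promoter or within the gene.

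**Figure D3:**
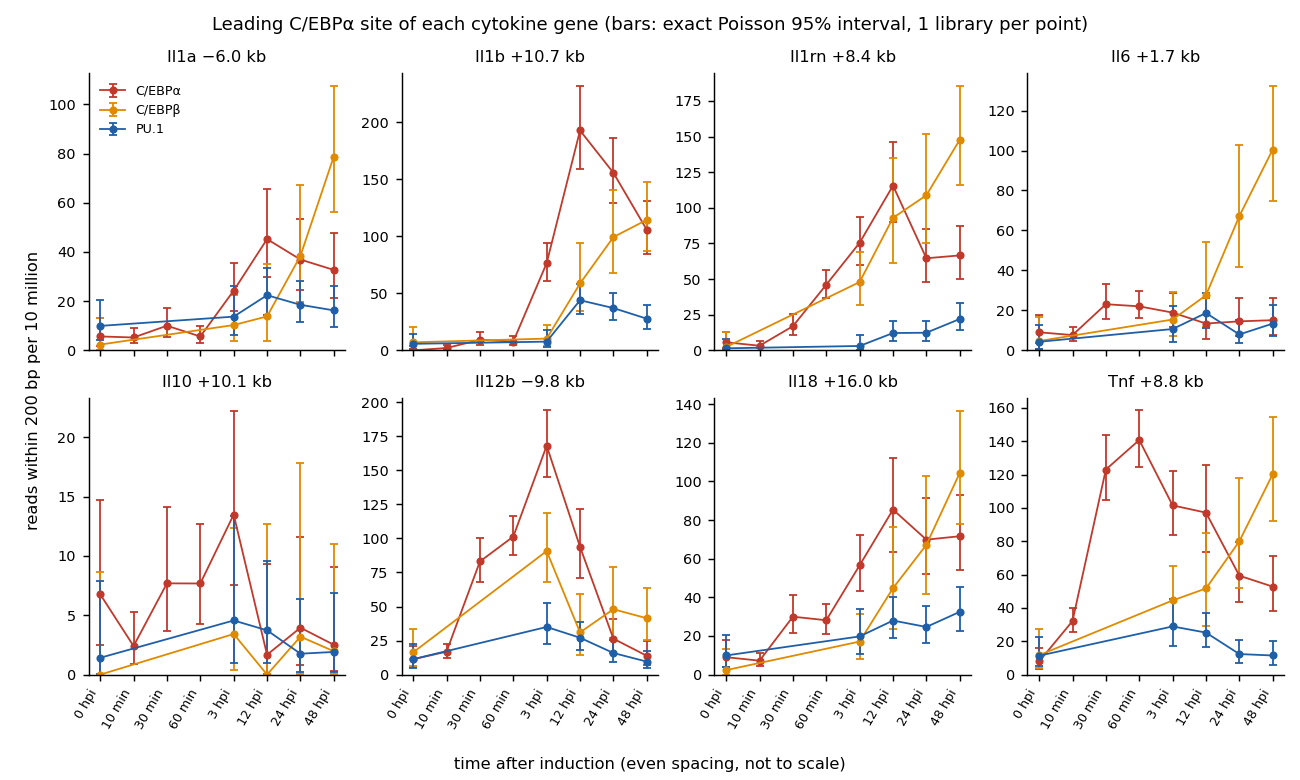
Reads within 200 bp of the strongest C/EBPα site of each gene per 10000000 reads, by time after induction (even spacing, not to scale) for C/EBPα, C/EBPβ and PU.1; bars are exact Poisson 95% intervals, and each point is 1 library. C/EBPα at Il12b returned by 48 hpi to its value at 0 hpi (13.8 and 11.3), while at Il1b, Il1rn, Il18 and Tnf it was 52.8 or more.

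Tnf, the gene of tumor necrosis factor, lies on the minus strand at chr17:35336326-35338952 among Lta, Ltb, Lst1, Nfkbil1 and Gm16181, and its locus had more sites (23) than 96.4% of all protein-coding loci. Because of the neighbouring genes, the sites cannot be assigned to Tnf by distance. The 3 sites printed are those where C/EBPα was called at 48 hpi.
Tnf −17.7 kb, chr17:35356529-35356679: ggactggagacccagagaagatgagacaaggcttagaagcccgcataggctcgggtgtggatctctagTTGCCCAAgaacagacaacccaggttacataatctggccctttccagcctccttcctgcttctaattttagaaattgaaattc
Tnf +1.4 kb, chr17:35337469-35337619: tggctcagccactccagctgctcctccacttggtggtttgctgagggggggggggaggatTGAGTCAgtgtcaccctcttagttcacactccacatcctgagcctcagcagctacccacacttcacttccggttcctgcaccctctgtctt
Tnf +8.8 kb, chr17:35330080-35330230: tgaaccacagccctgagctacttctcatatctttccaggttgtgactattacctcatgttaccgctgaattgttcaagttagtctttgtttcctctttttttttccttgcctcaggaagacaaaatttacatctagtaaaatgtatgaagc
The −17.7 kb site holds a C/EBP string, the +1.4 kb site an AP-1 string, and the +8.8 kb site none.

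C/EBPα at the leading site, 8.8 kb downstream of the Tnf start and 1229 bp before the start of Ltb (lymphotoxin β), measured 7.89 at 0 hpi, 32.1 at 10 min, 123 at 30 min, 141 at 60 min, 102 at 3 hpi, 97.1 at 12 hpi, 59.3 at 24 hpi and 52.8 at 48 hpi. The highest value came at 60 min (interval 125 to 158), overlapping with the intervals of 30 min and 12 hpi, and the value at 48 hpi was 6.69-fold (95% counting interval 2.98 to 17.6) above that at 0 hpi. C/EBPβ had its highest value at 48 hpi instead, with 11.7 at 0 hpi, 44.5 at 3 hpi, 51.7 at 12 hpi, 80 at 24 hpi and 120.2 at 48 hpi. PU.1 measured 11.3 at 0 hpi, 28.9 at 3 hpi, 25.2 at 12 hpi, 12.3 at 24 hpi and 11.5 at 48 hpi, called at 3 and 12 hpi, and was not higher at 48 hpi.

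At −17.7 kb, 1175 bp before the start of Gm16181, C/EBPα was called in all 8 libraries, with 19.2 at 0 hpi, 30.1 at 10 min, 101 at 30 min, 102 at 60 min, 89.8 at 3 hpi, 87.1 at 12 hpi, 83.04 at 24 hpi and 75.4 at 48 hpi. The call at 0 hpi was lost in thinned libraries and with the higher tag threshold. The value at 48 hpi was 3.93-fold (95% counting interval 2.27 to 7.19) that at 0 hpi. Inside Tnf, in an intron 1.4 kb from the start, C/EBPα measured 10.2 at 0 hpi, 7.22 at 10 min, 29.99 at 30 min, 29.2 at 60 min, 41.3 at 3 hpi, 68.7 at 12 hpi, 29 at 24 hpi and 27.6 at 48 hpi, called from 10 min on. The intervals at 0 hpi (4.64 to 19.3) and 48 hpi (17.3 to 41.9) overlapped, so this site was not called higher. At the Tnf promoter (96 bp before the start, a PU.1 string in the window) PU.1 was called in all 5 libraries, with 19.9 at 0 hpi, 24.3 at 3 hpi, 42 at 12 hpi, 34.4 at 24 hpi and 18.1 at 48 hpi, and neither C/EBP factor was called. The sites at +9.9 and +19.0 kb held C/EBPα at 3 hpi, with 44.03 and 46.7, and 1 and 2 reads were left at 48 hpi. In the locus no PU.1 site was higher or lower at 48 than at 0 hpi, although 7 of 15 were called at 0 hpi.

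Il12b, whose product is the p40 subunit, had the highest C/EBPα value of the 90 sites at 3 hpi and no called C/EBPα site at 48 hpi. The next highest at 3 hpi, Il1b −2.4 kb, overlapped with it in its interval. The gene lies on the plus strand at chr11:44213565-44227535, and no other protein-coding gene lies in its locus.
Il12b −9.8 kb, chr11:44203685-44203835: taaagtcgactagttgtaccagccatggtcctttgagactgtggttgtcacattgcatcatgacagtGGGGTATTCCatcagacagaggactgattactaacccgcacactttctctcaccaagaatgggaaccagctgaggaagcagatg
Il12b +28.2 kb, chr11:44241689-44241839: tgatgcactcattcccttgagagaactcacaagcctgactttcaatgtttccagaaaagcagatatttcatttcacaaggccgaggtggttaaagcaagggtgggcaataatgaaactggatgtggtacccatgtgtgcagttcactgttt
The −9.8 kb site, the leading one, holds an NF-κB string and no C/EBP string, and the +28.2 kb site, beyond the 3′ end, holds none of the strings.

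C/EBPα at −9.8 kb measured 11.3 at 0 hpi, 16.9 at 10 min, 83.05 at 30 min, 101 at 60 min, 168 at 3 hpi, 93.8 at 12 hpi, 26.4 at 24 hpi and 13.8 at 48 hpi. It was lower at 48 than at 3 hpi by 12.2-fold (95% counting interval 6.64 to 24.8). The intervals at 0 hpi (5.41 to 20.7) and 48 hpi (6.90 to 24.7) overlapped. The sites at −10.1 and −9.5 kb share reads with it. Their C/EBPα values at 3 hpi were 64.7 and 69.2, and at 48 hpi 10.1 and 5.03. C/EBPβ at −9.8 kb followed the same course in part, with 16.3 at 0 hpi, 90.7 at 3 hpi, 31 at 12 hpi, 48 at 24 hpi and 41.4 at 48 hpi, and was still called at 48 hpi (interval 25.6 to 63.2). In thinned libraries no C/EBPβ site of Il12b was called at 48 hpi. PU.1 measured 11.3 at 0 hpi, 34.98 at 3 hpi, 27.1 at 12 hpi, 15.9 at 24 hpi and 9.55 at 48 hpi.

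At the other end of the Il12b locus, at +28.2 kb, C/EBPα rose and fell as well, with 4.51 at 0 hpi, 18.1 at 10 min, 69.2 at 30 min, 59.9 at 60 min, 62 at 3 hpi, 41.9 at 12 hpi, 6.59 at 24 hpi and 10.1 at 48 hpi. The value at 48 hpi was lower than at 3 hpi by 6.17-fold (95% counting interval 2.96 to 14.8). PU.1 was not called there in any library, and C/EBPβ only at 3 hpi (34.2).

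The Il12b locus was also the only one of the 8 with PU.1 sites that were lower at 48 than at 0 hpi. At −4.4 kb, where the window holds a PU.1 string, PU.1 measured 104 at 0 hpi, 48.7 at 3 hpi, 29.9 at 12 hpi, 19.4 at 24 hpi and 13.4 at 48 hpi, a fall of 7.74-fold (95% counting interval of the ratio of 48 over 0 hpi 0.0673 to 0.231). At −17.7 kb it measured 34.03 at 0 hpi, 44.1 at 3 hpi, 32.7 at 12 hpi, 16.7 at 24 hpi and 8.60 at 48 hpi, a fall of 3.96-fold (95% counting interval of the ratio of 48 over 0 hpi 0.103 to 0.563). At the −4.4 kb site each library was lower than the one before, and C/EBPα and C/EBPβ were not called. At the intronic site at +5.3 kb PU.1 was called in all 5 libraries, with 21.3 at 0 hpi, 48.7 at 3 hpi, 32.7 at 12 hpi, 13.2 at 24 hpi and 21.02 at 48 hpi.

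Il6 had little C/EBPα but gained C/EBPβ. The gene lies on the plus strand at chr5:30339701-30346508. Its leading site lies 1.7 kb from the start, in a coding exon, and its sequence holds the C/EBP string at 2 places.
Il6 +1.7 kb, chr5:30341300-30341450: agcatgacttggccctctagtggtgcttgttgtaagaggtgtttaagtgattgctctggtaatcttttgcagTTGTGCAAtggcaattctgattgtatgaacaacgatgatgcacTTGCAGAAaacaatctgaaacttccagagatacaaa
C/EBPα measured 9.02 at 0 hpi, 7.62 at 10 min, 23.1 at 30 min, 22.01 at 60 min, 18.9 at 3 hpi, 13.4 at 12 hpi, 14.5 at 24 hpi and 15.1 at 48 hpi, called from 30 min to 24 hpi. The intervals at 0 hpi (3.89 to 17.8) and 48 hpi (7.79 to 26.3) overlapped. C/EBPβ measured 4.67 at 0 hpi, 15.4 at 3 hpi, 27.6 at 12 hpi, 67.2 at 24 hpi and 100.5 at 48 hpi, called from 3 hpi on, and the ratio of 48 over 0 hpi (2 reads) was 21.5-fold (95% counting interval 5.66 to 182).

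At the Il6 promoter, 227 bp before the start, the window holds a C/EBP and an AP-1 string, and binding was weak. C/EBPα was called at 3 hpi only, with 10.8, and C/EBPβ at 48 hpi only, with 25.6. PU.1 was strongest far from the gene. At −19.4 kb it measured 21.3 at 0 hpi, 41.1 at 3 hpi, 109 at 12 hpi, 88.99 at 24 hpi and 123 at 48 hpi, an increase of 5.79-fold (95% counting interval 3.39 to 10.7), and at +23.0 kb it went from 1 read at 0 hpi to 26.8 at 48 hpi. Both windows hold a PU.1 string, and neither site was called for a C/EBP factor.

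Il10, on the plus strand at chr1:132916422-132921551, was the locus with the fewest sites (5) and without any called C/EBPβ site.
Il10 +10.1 kb, chr1:132926428-132926578: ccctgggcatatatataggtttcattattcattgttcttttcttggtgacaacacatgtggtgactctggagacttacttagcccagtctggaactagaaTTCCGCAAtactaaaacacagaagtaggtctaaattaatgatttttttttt
Its 1 C/EBPα site, 10.1 kb from the start, holds a C/EBP string and was called at 30 and 60 min. C/EBPα measured 6.77 at 0 hpi, 2.41 at 10 min, 7.69 at 30 min, 7.68 at 60 min, 13.5 at 3 hpi, 1.68 at 12 hpi, 3.95 at 24 hpi and 2.51 at 48 hpi, values that rest on 1 to 15 reads, of which the highest, at 3 hpi, was not called, and the call was lost when the libraries were thinned. PU.1 alone increased in this locus. In an intron at +1.2 kb it measured 17.02 at 0 hpi, 38.02 at 3 hpi, 56.9 at 12 hpi, 44.9 at 24 hpi and 47.8 at 48 hpi, called in all 5 libraries, an increase of 2.81-fold (95% counting interval 1.47 to 5.79). PU.1 at +1.9 kb went from 2.84 to 24.8 and at +18.4 kb from 2.84 to 32.5, each on 2 reads at 0 hpi.

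The 8 leading sites changed their order between 3 and 48 hpi. At 3 hpi C/EBPα at Il12b (168, interval 145 to 194) stood above the next, Tnf (102, interval 83.7 to 122), with no overlap. Tnf, Il1b, Il1rn and Il18 followed, each overlapping the next, then a gap to Il1a (24.3, interval 16.0 to 35.3), Il6 and Il10. At 48 hpi the order was Il1b (106), Il18 (71.6), Il1rn (66.6), Tnf (52.8), Il1a (32.7), Il6 (15.1), Il12b (13.8) and Il10 (2.51), and every neighbour overlapped the next. These sites were chosen for their C/EBPα reads, so their height is a description. The order leaves out other sites of the loci, such as Il1b −2.4 kb at 3 hpi (138, interval 117 to 162) and Tnf −17.7 kb at 48 hpi (75.4). For C/EBPβ at 48 hpi the order was Il1rn (148), Tnf (120), Il1b (114), Il18 (104), Il6 (100.5), Il1a (78.8), Il12b (41.4) and Il10 (1.97), and only Il12b and Il10 did not overlap as neighbours.

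**Figure D4:**
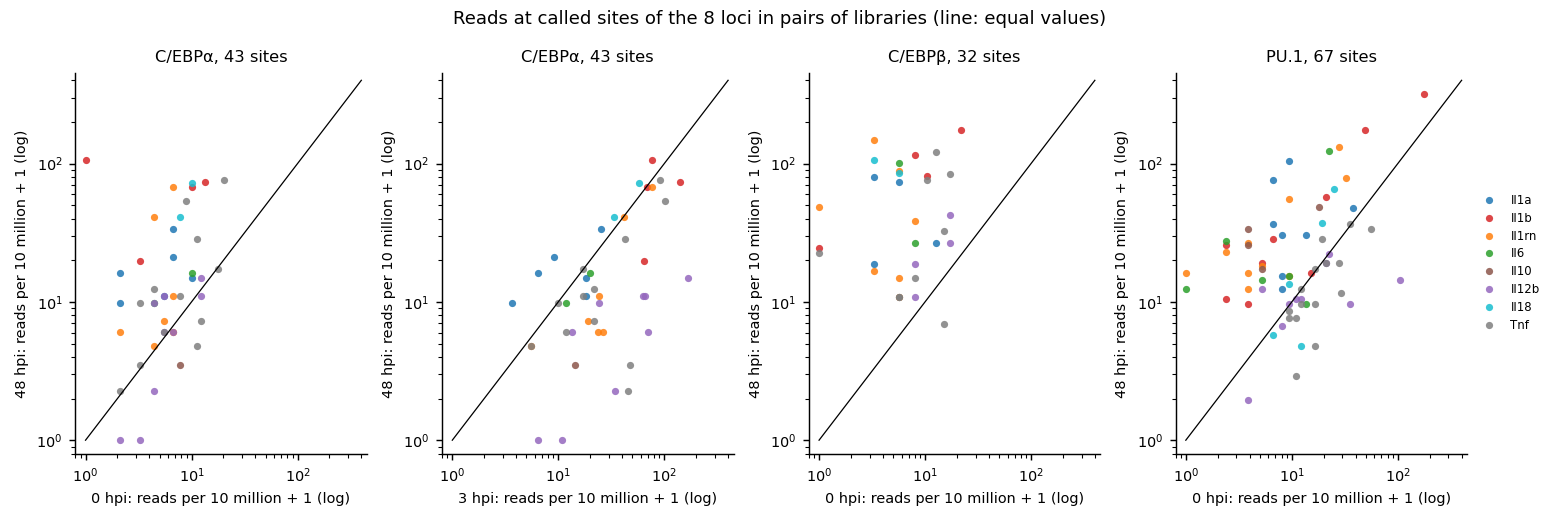
Reads per 10000000 plus 1 at the sites of the 8 loci in pairs of libraries on log axes, coloured by gene, with a line of equal values: C/EBPα at 0 and 48 hpi and at 3 and 48 hpi (43 sites), C/EBPβ at 0 and 48 hpi (32 sites) and PU.1 at 0 and 48 hpi (67 sites). In the panel of C/EBPα at 3 and 48 hpi 6 sites of Il12b, most of which share reads with a neighbour, are among the 11 lower at 48 hpi. In the PU.1 panel the 2 lower sites are both of Il12b.

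C/EBPβ was called at 1 site of the loci at 0 hpi (Tnf −17.9 kb, on 6 reads), 18 at 3 hpi, 7 at 12 hpi, 16 at 24 hpi and 20 at 48 hpi, beside 3.37%, 37.4%, 11.9%, 34.9% and 81.4% of all C/EBPβ sites. The library of 12 hpi was the smallest. With all C/EBPβ libraries thinned to it, the counts were 0, 5, 7, 17 and 14 sites in 0, 4, 4, 7 and 6 loci. The thinned libraries kept their own tag thresholds, 7 reads at 3 hpi and 6 at 12 hpi. These counts therefore do not compare 3 and 12 hpi at equal depth alone. With windows of 200 bp, whose threshold follows depth, the sites numbered 1, 12, 10, 14 and 22. A tag threshold 1.5 times higher left 8 sites at 3 hpi, and the loci called at 12 hpi were 2 with this threshold and 7 with windows of 200 bp, in place of 4. By locus the unthinned counts were 1, 6, 4, 7 and 7 of 8, beside 2.98%, 20.5%, 9.24%, 21.9% and 39.7% of all protein-coding loci. At 48 hpi 17 of the 32 C/EBPβ sites were higher than at 0 hpi, beside 46.5% of 18123 sites genome-wide, and none was lower, beside 0.193%. The 17 were 4 sites each of Il1b, Il1rn and Tnf, 2 each of Il1a and Il18, and 1 of Il6. The median over the 32 sites went from 5.84 at 0 hpi to 34.5 at 48 hpi, and over all C/EBPβ sites from 4.67 to 29.55. C/EBPβ thus rose at its sites across the genome as well as in these loci. Of the 43 C/EBPα sites 26 were called for C/EBPβ as well, beside 29.7% of all C/EBPα sites.

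PU.1 was called in all 8 loci at each of its 5 time points, beside 63.9% of all protein-coding loci at 0 hpi and 67.6%, 78.8%, 73.2% and 70.2% later. With a tag threshold 1.5 times higher 7 loci were called at 0 hpi, without Il10, and 8 at each later time. By site the counts were 23 at 0 hpi, 27 at 3 hpi, 55 at 12 hpi, 48 at 24 hpi and 43 at 48 hpi, beside 36.4%, 43.4%, 77.9%, 59.1% and 53.9% of all PU.1 sites. At all 5 time points 15 sites were called, a count for which the share over all PU.1 sites was not computed. With all PU.1 libraries thinned to the smallest, the counts from 0 to 48 hpi were 21, 27, 42, 35 and 33 sites. All 8 loci stayed called at each time. Tag thresholds were unchanged, 9 reads at 0 and 3 hpi and 10 later, so thinning mixes depth with a stricter rule. With windows of 200 bp, whose threshold follows depth, the sites numbered 23, 29, 53, 44 and 42. Shares over all PU.1 sites were computed for neither setting. At 48 hpi 21 of the 67 sites were higher than at 0 hpi, beside 10.3% of 92402 sites genome-wide, and 2 were lower, beside 6.41%. The 21 were 6 sites of Il1rn, 4 each of Il1a and Il1b, 3 each of Il6 and Il10 and 1 of Il18, and the locus of Tnf had none. PU.1 was already called at 0 hpi at 11 of the 43 C/EBPα sites, beside 18.2% of all C/EBPα sites. When PU.1 within 1000 bp was counted in place of the same site, the number was 20 of 43, beside 31.5%. At the leading sites themselves PU.1 at 0 hpi was called at none of the 8, with values from 1.42 (Il1rn and Il10) to 11.3 (Il12b and Tnf). Within 1000 bp PU.1 was called at 0 hpi next to 2 of them, at Il12b −9.5 kb (19.9, 269 bp away) and at Il18 +15.8 kb (24.1, 210 bp away), whose windows share reads with the leading site. Shares over the leading sites of other loci were not computed, so these 2 counts have no background of their own. The median over the 67 sites went from 8.51 at 0 hpi to 16.2 at 48 hpi, and over all PU.1 sites from 9.93 to 12.4.

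Receptors, partner subunits and processing enzymes of these cytokines were described by a list of 20 genes. Their loci held 192 sites. Of 92 C/EBPα sites 12 were higher at 48 than at 0 hpi and none was lower, of 36 C/EBPβ sites 14 were higher and none was lower, and of 142 PU.1 sites 21 were higher and 9 lower, to be read beside the shares given above for all sites. At 48 hpi 9 of the 20 loci had a C/EBPα site, beside 30.8% of all protein-coding loci. Among their best sites the highest value was at Il6ra, a chain of the IL-6 receptor, 0.151 kb before the gene start, with 57.5 at 0 hpi and 172 at 48 hpi. Tnfrsf1b, a TNF receptor, had 67.7 and 88.0 at its best site, Nlrp3, the inflammasome sensor, 10.2 and 52.8, and Il23a, which pairs with the product of Il12b, 5.64 and 50.3. At Il12a, the other subunit of IL-12, the best site had 12.4 at 0 hpi and 11.3 at 48 hpi. A C/EBPα site of that locus was called at each time point from 0 to 24 hpi and none at 48 hpi. At Casp1, which cleaves pro-IL-1β, the best site had 2.26 and 12.6, and no C/EBPα site of the locus was called higher.

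As a description, the sites elsewhere in the genome with the course most like that of each leading site other than that of Il18 were found by Pearson's r of log2 values over the 18 libraries, with 1 added to the reads per 10000000. The 18 points are libraries of 3 antibodies that differ in depth and are not independent. For Il1rn the nearest genes of the most similar sites were Ifitm3 (r = 0.983), Tlr2 and Col25a1, for Il1b Jhdm1d (0.978), Nin and Arpc5, and for Il12b Glipr1 (0.958), Cuedc1 and Hmgn3. For Tnf they were Mrpl33 (0.973), Mef2c and Fam174a, and for Il1a Cdkn1a (0.951), Nell1 and Fyb. For Il6 they were Sv2b (0.933), Atp1a4 and Nsmce2, and for Il10 5830418K08Rik (0.93), Ccdc83 and Arhgap26. The sites lay from 0.429 kb (Glipr1) to 137.4 kb (Fam174a) from the start of the gene named. Tlr2 was 43.4 kb and Nsmce2 126.9 kb away, so a name marks the place of a site and need not be its target.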

How the data were processed

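ChIP-seq reads of 18 libraries of C10 cells were analysed, 1 library per factor and time point. According to the methods, the authors took base calls from Illumina's software and mapped reads on mm9 by ELAND or Bowtie, with no mismatch allowed, and then dropped multiply mapping and identical reads. The deposited files list 1 read per line with its place and strand and are not normalized, so that each count of lines is a raw read count. Which aligner served which library is not given in the sources used here. The PU.1 reads of 0 hpi are described as merged and were taken as 1 library. The labels and the methods give different doses of β-Est, and none is quoted.

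One read was kept per position and strand, which removed at most 2.51% of reads (C/EBPα at 3 hpi), and PU.1 reads on unplaced contigs were left out. Sites were called by rebuilding the rules of HOMER (fragment-centred reads, a tag threshold per library taken from the study, at least 4 times the density of the 10 kb around it, and a Poisson p of 0.0001 against that density), and calls of all libraries within 200 bp were merged into 1 site. The calling window of each library was derived from the study's thresholds and read total. For C/EBPα it was 68 bp at 0 hpi and 124 to 159 bp later. For C/EBPβ it was 56 bp at 0 hpi, 75 bp at 12 hpi and 110 to 127 bp otherwise. The call counts are to be read beside these windows. Thinned libraries kept their window and tag threshold. The caller was tested on simulated data. Genes were those of GENCODE vM1. The 8 genes, the list of 20 genes and the strings were chosen with earlier results of these data known. The leading site of a locus was, among sites where C/EBPα was called at some time, that with the highest C/EBPα value at any time. Intervals were exact Poisson for values and exact binomial for ratios. Because no group has 2 libraries, no p-value was computed. The alternatives were other calling rules, library sizes, flanks, read windows, scalings and shifts. Python 3.11.15, numpy 2.4.6, pandas 2.3.3, scipy 1.17.1 and numba 0.67.0 were used.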

Additional observations from a re-analysis of the deposited data

How the results depend on the processing

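No paired analysis was possible because each library is the only one of its factor and time point, and for the same reason no library could be left out within a group. The 5 loci with a C/EBPα site at 48 hpi stayed 5 under the other calling rules, with reads as deposited, in thinned libraries and with 10 kb flanks, and became 6 with 50 kb flanks. A tag threshold 1.5 times higher left 13 PU.1 sites at 0 hpi in place of 23, in 7 loci in place of 8, and 7 C/EBPα sites with PU.1 at 0 hpi in place of 11. Flanks of 10 kb gave 7 in place of 11, of 26 C/EBPα sites in all. Flanks of 50 kb enlarged the loci and gave 21 C/EBPα sites at 48 hpi in place of 13, 33 C/EBPβ sites in place of 20, 50 PU.1 sites at 0 hpi in place of 23, 87 at 48 hpi in place of 43, and 23 of 80 C/EBPα sites with PU.1 at 0 hpi. PU.1 within 1000 bp, an alternative added after the data were seen, gave 20 in place of 11. The counts of higher and lower sites stayed within 1.5 times with reads counted within 100 or 500 bp, with another scaling, with reads as deposited and with another shift, and no leading site called higher changed its direction. The median log2 ratios of 48 over 0 hpi at the leading sites (2.64 for C/EBPα, 4.23 for C/EBPβ and 1.18 for PU.1) ranged from 2.59 to 2.73, from 3.00 to 4.37 and from 0.738 to 1.45; the values 3.00 and 0.738 came with reads within 500 bp, where that of C/EBPβ moved by more than 1.5 times as a fold. Thinning, with tag thresholds unchanged, moved the number of C/EBPα sites at 60 min from 25 to 13 and at 30 min from 23 to 10. Thinning also moved the number of C/EBPβ sites at 3 hpi from 18 to 5. With windows of 200 bp these 3 numbers were 23, 19 and 12. Thinning mixes depth with a stricter rule, so the part of depth alone was not tested.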

Other observations

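The neighbours of the cytokine genes had binding of their own. In the Tnf locus PU.1 was called at 0 hpi and later at Lst1 (15.7 and 13.7 kb downstream of the Tnf start, in introns of Lst1, a gene of leukocytes), with 34.03 at 0 hpi, 28.9 at 3 hpi, 25.2 at 12 hpi, 17.6 at 24 hpi and 35.4 at 48 hpi at the first site. The site 11.7 kb downstream of the Tnf start, between Lst1 and Ltb, had PU.1 in all 5 libraries, with 55.3 at 0 hpi, 65.4 at 3 hpi, 69.1 at 12 hpi, 43.2 at 24 hpi and 32.5 at 48 hpi. A PU.1 site in a coding exon of Ltb went from 15.6 at 0 hpi to 3.82 at 48 hpi, where 4 reads were left, with overlapping intervals. At the site 119 bp before the start of Ckap2l, in the Il1a locus, PU.1 measured 36.9 at 0 hpi, 34.98 at 3 hpi, 70.9 at 12 hpi, 31.7 at 24 hpi and 46.8 at 48 hpi, called in all 5 libraries and neither higher nor lower.

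The C/EBPα sites at Tnf −16.7 kb and −17.1 kb were highest at 12 hpi, with 55.3 and 36.9, beside 16.3 and 10.1 at 48 hpi, while the site at −17.7 kb held 87.1 and 75.4. PU.1 at −16.7 and −17.1 kb was likewise highest at 12 hpi, with 41.1 and 53.2, and measured 1.91 and 10.5 at 48 hpi. The PU.1 library of 12 hpi also called the most regions of all PU.1 libraries in the genome (71989), and its part in this was not tested.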
